A study of Mus musculus with 4 samples.

Results

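The 8 genes described here, Rgs1, Rgs2, Rgs3, Rgs10, Rgs13, Rgs14, Rgs18 and Rgs19, encode regulators of G protein signaling known from lymphocytes. They were taken by name from the 23305 genes with an FPKM value (the number of fragments scaled to transcript length and to the mapped reads of the library), and all 8 were present. RNA came from resting follicular B cells of the spleen of female mice, sorted as B220+ CD23-high CD21-low cells without CD80 or class-switched immunoglobulin on their surface. There were 2 libraries from wild-type (WT) mice of the C57BL/6 strain and 2 from Ets1-/- mice of mixed C57BL/6 x 129Sv background, in which the gene for the transcription factor Ets1 is mutated in all cells and not in B cells alone. Genotype and strain therefore cannot be told apart in these libraries, and the age of the mice and the number of mice behind each library are not given in the sources used here. The comparison asks which of these genes differ in level between WT and Ets1-/- B cells.

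RGS proteins end the signal of G protein-coupled receptors. A chemokine receptor makes its G protein exchange GDP for GTP, and the RGS domain speeds up the hydrolysis of that GTP by the α subunit, so that the signal is switched off. In B cells the receptors so controlled guide the cells into the follicle, towards the T cell zone and out of the organ. Most of the lymphocyte members belong to the R4 subfamily, mostly small proteins with little beside the RGS domain. Rgs10 and Rgs14 belong to the R12 subfamily and Rgs19 to the RZ subfamily.

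The libraries differed in depth, and the deepest was estimated at 1.754 and the shallowest at 0.876 times the depth of WT replicate 1. B cell markers were high, as the label says, and the FPKM of 9 such genes summed to between 5874 and 7100 in the 4 libraries. RNA of other cells was also present. The summed FPKM of 9 neutrophil genes was 114 and 94.0 in WT and 2569 and 704 in Ets1-/- replicates 1 and 2, that of 7 erythroid genes 6.27 and 4.95 against 88.2 and 27.7, and that of 8 macrophage and monocyte genes 61.0 and 30.3 against 145.6 and 93.4. Most of the last difference lay in Lyz2, which neutrophils also make, with an FPKM of 42.2 and 17.95 against 102.3 and 45.7, and in Emr1 with 2.35 and 2.63 against 23.5 and 37.2. Lists of T cell, plasma cell and marginal zone B cell genes differed less in sum, at 0.941, 0.812 and 0.992 times the WT sums, but not in each gene. Thy1 of the T cell list was called lower (limma BH adjusted p = 0.00658). Of the lists above, Camp, Ltf and Ngp of the neutrophil genes and Emr1 were called higher (limma BH adjusted p from 0.00969 to 0.0395). Sdc1 and Prdm1 of the plasma cell list had Ets1-/- means 2.41 and 2.52 times the WT means, without being called. Of 6 marginal zone genes 5 had a lower mean in Ets1-/- B cells and 1, Mzb1, a higher mean, and 0 were called. Cr2 had a WT mean 2.29 times the Ets1-/- mean, and Dtx1 an FPKM of 63.6 and 78.9 against 48.8 and 40.8. The paper, with Cuffdiff, which is a different test from limma on FPKM, lists Prdm1 as upregulated and Cr2 as downregulated. For Prdm1 its qPCR had the same direction. Mzb1 gave the largest part of the marginal zone sum, with 174.7 and 214.6 in WT and 271.7 and 290.5 in Ets1-/- libraries. Ets1 itself had an FPKM of 231 and 275 in WT and 229 and 229.8 in Ets1-/- libraries, so its whole-gene value does not check the genotypes.

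Rgs18 fell in Ets1-/- B cells, to 0.901 from an FPKM of 5.87, and was the 1 gene of the 8 to pass the test. Rgs13 and Rgs2 lay lower in both Ets1-/- libraries than in both WT libraries without passing it, and Rgs14, Rgs19 and Rgs10 overlapped between the genotypes. Rgs1 varied more between the WT libraries than between the genotypes. The test was limma on log2(FPKM + 1) values of the 10949 genes whose mean FPKM reached 1 in WT or in Ets1-/- B cells. To be called, a gene needed a 2-fold difference on that scale and a Benjamini-Hochberg (BH) adjusted limma p of at most 0.05. By this rule 1 of the 8 genes was called lower and 0 were called higher, where 0.822% of all tested genes were called lower, 0.877% higher and 1.70% in either direction. Before adjustment, limma gave p under 0.05 for 3 of the 8 genes and for 13.3% of all tested genes. Both Ets1-/- values lay below both WT values in 4 of the 8 genes, Rgs2, Rgs3, Rgs13 and Rgs18, against 22.2% of all tested genes. The median log2 fold change of the 8 genes was -0.20, beside -0.02 over all tested genes, and 7 of the 8 log2 fold changes were negative. All 8 genes passed the filter on low values, Rgs13 and Rgs18 through their WT means alone, so these counts describe the genes and support nothing.

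**Figure D1:**
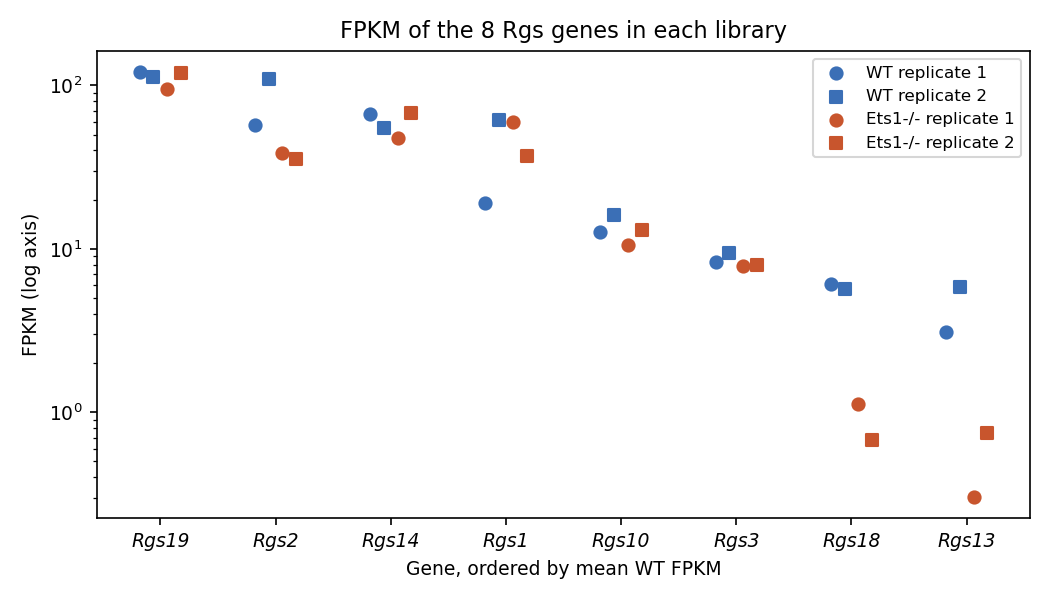
FPKM (log axis) of the 8 Rgs genes in each library, with 1 point per library, blue for WT and orange for Ets1-/-. Rgs18 and Rgs13 lie between 3.09 and 6.07 in WT and between 0.305 and 1.12 in Ets1-/- B cells, while Rgs19 lies near the top in all 4 libraries.

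Rgs18 is an R4 member best known from megakaryocytes and platelets, where it acts on Gi and Gq proteins. Its FPKM was 6.07 and 5.68 in the WT replicates and 1.12 and 0.680 in the Ets1-/- replicates. The genotypes did not overlap, and the gap between them was wider than the spread within either. The WT mean of 5.87 ± 0.278 (SD, n = 2) was 6.52 times the Ets1-/- mean of 0.901 ± 0.313 (SD, n = 2). The log2 fold change was -1.86 (standard error 0.18, 95% interval from -2.32 to -1.40) and the limma BH adjusted p 0.0166. Adding 1 to each FPKM draws changes at such low levels towards 0, so the fitted log2 value is smaller in size than that of the ratio of means. Rgs18 passed the filter on low values through its WT mean alone. With no filter on low values the limma BH adjusted p of Rgs18 was 0.0565 over 17315 genes, and the call was lost. In bulk RNA of sorted cells, fewer cells with a transcript and less transcript per cell cannot be told apart.

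Platelet RNA was low in all 4 libraries. Of 11 platelet and megakaryocyte genes, 10 stayed under an FPKM of 2 in all 4 libraries, and the summed FPKM of the list was 10.9 and 8.62 in WT and 11.5 and 11.1 in Ets1-/- libraries. The defining platelet genes Pf4 and Ppbp lay between 0.122 and 0.953 and between 0.0612 and 0.289. Itgb3, an integrin chain that other cells also make, gave most of that sum with an FPKM between 5.99 and 8.59. Natural killer cell genes were lower in the Ets1-/- libraries, with a summed FPKM over 6 genes of 30.8 and 18 in WT and 6.24 and 13.2 in Ets1-/- replicates 1 and 2, and 5 of the 6 had a lower mean. The size of the difference varied within the list. The WT mean was 2.15 times the Ets1-/- mean for Klrd1, 2.79 times for Prf1 and 2.9 times for Gzma, beside 2.51 for the sums. Gzmb overlapped, with a mean FPKM of 1.70 in WT and 1.83 in Ets1-/- libraries. Ncr1 and Klrb1c, receptors that define natural killer cells, were lower by more than the sum. Ncr1 had an FPKM of 2.42 and 0.957 in WT and 0.02235 and 0.128 in Ets1-/- libraries, a WT mean 22.5 times the Ets1-/- mean, and Klrb1c had 2.19 and 1.25 against 0.313 and 0.419, a ratio of 4.69 beside 6.52 for Rgs18. Neither passed the test (limma BH adjusted p = 0.145 for Ncr1 and 0.136 for Klrb1c). Ncr1, Klrb1c and Prf1 passed the filter on low values through their WT means alone, as Rgs18 did. Rgs18 and the natural killer cell sum were both higher in WT replicate 1 than in WT replicate 2, and their orders were opposite in the Ets1-/- libraries. The part of natural killer cells in the Rgs18 values was not tested.

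Rgs13 is the R4 member of germinal center B cells and mast cells. Its FPKM was 3.09 and 5.84 in WT and 0.305 and 0.746 in Ets1-/- libraries. Both Ets1-/- values were below both WT values, although the replicates of each genotype also differed from each other, by 1.89 times in WT and 2.45 times in Ets1-/- B cells. The WT mean of 4.46 ± 1.95 (SD, n = 2) was 8.49 times the Ets1-/- mean of 0.525 ± 0.312 (SD, n = 2), the widest ratio among the 8 genes. Its log2 fold change of -1.81 (standard error 0.31, 95% interval from -2.59 to -1.03) did not pass (limma BH adjusted p = 0.0681). Without WT replicate 1, the library with the lower WT value, the log2 fold change was -2.18, and without WT replicate 2 it was -1.44. It was -1.60 without Ets1-/- replicate 1 and -2.02 without Ets1-/- replicate 2. With no filter on low values the limma BH adjusted p was 0.126, whereas some other settings, given below, called Rgs13.

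Germinal center genes differed less between the genotypes than Rgs13. Over 7 such genes the summed FPKM was 46.9 and 62.7 in WT and 39.9 and 45.8 in Ets1-/- libraries, and all 7 were higher in WT replicate 2 than in WT replicate 1, as Rgs13 was. Bcl6 gave the largest part of that sum, with an FPKM of 32.45 and 33.46 in WT and 21.31 and 24.38 in Ets1-/- libraries, without overlap. The other genes of the list overlapped between the genotypes. The FPKM of Rgs13 was 1.27 and 1.20 times that of S1pr2, the receptor that holds germinal center B cells in place, in the WT libraries and 0.162 and 0.218 times in the Ets1-/- libraries. This ratio did not overlap between the genotypes, although S1pr2 itself did, and the part of germinal center cells in the Rgs13 values was not tested.

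Rgs2 prefers the Gq class of α subunits and is an early gene of lymphocyte activation. Its FPKM was 57.6 and 109 in WT and 38.8 and 35.5 in Ets1-/- libraries. The Ets1-/- values lay close together and below both WT values, whereas the WT values differed by 1.9 times. The WT mean of 83.5 ± 36.6 (SD, n = 2) was 2.25 times the Ets1-/- mean of 37.1 ± 2.34 (SD, n = 2). The log2 fold change was -1.08 (standard error 0.32, 95% interval from -1.89 to -0.27), which did not pass (limma BH adjusted p = 0.219). Without WT replicate 1 the log2 fold change was -1.54 and without WT replicate 2 it was -0.62.

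Rgs1 damps the response of B cells to the chemokines of the follicle and is induced by activation. Its FPKM was 19.0 in WT replicate 1, 61.7 in WT replicate 2, 59.3 in Ets1-/- replicate 1 and 37.1 in Ets1-/- replicate 2. The library WT replicate 1 stood apart, and both Ets1-/- values lay between the WT values. The means were 40.4 ± 30.2 (SD, n = 2) and 48.2 ± 15.7 (SD, n = 2). The log2 fold change was 0.44 (standard error 0.57), and its 95% interval from -1.02 to 1.90 holds changes of either direction. Its limma BH adjusted p was 0.868. Without WT replicate 1 the log2 fold change was -0.39, so these libraries give Rgs1 no direction.

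WT replicate 1 also had the lowest summed level of immediate early genes, which rise within minutes when cells are stimulated or handled. Their summed FPKM over 11 genes was 2536 and 4435 in WT replicates 1 and 2 and 6908 and 7054 in Ets1-/- replicates 1 and 2. All 11 were higher in WT replicate 2 than in WT replicate 1, and 10 of the 11 had a higher mean in Ets1-/- B cells. Rgs1, Rgs2 and Rgs13 were likewise higher in WT replicate 2 than in WT replicate 1, but Rgs2 and Rgs13 were lower in the Ets1-/- libraries, where the immediate early sum was higher. The part of cell handling in these levels was not tested.

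**Figure D2:**
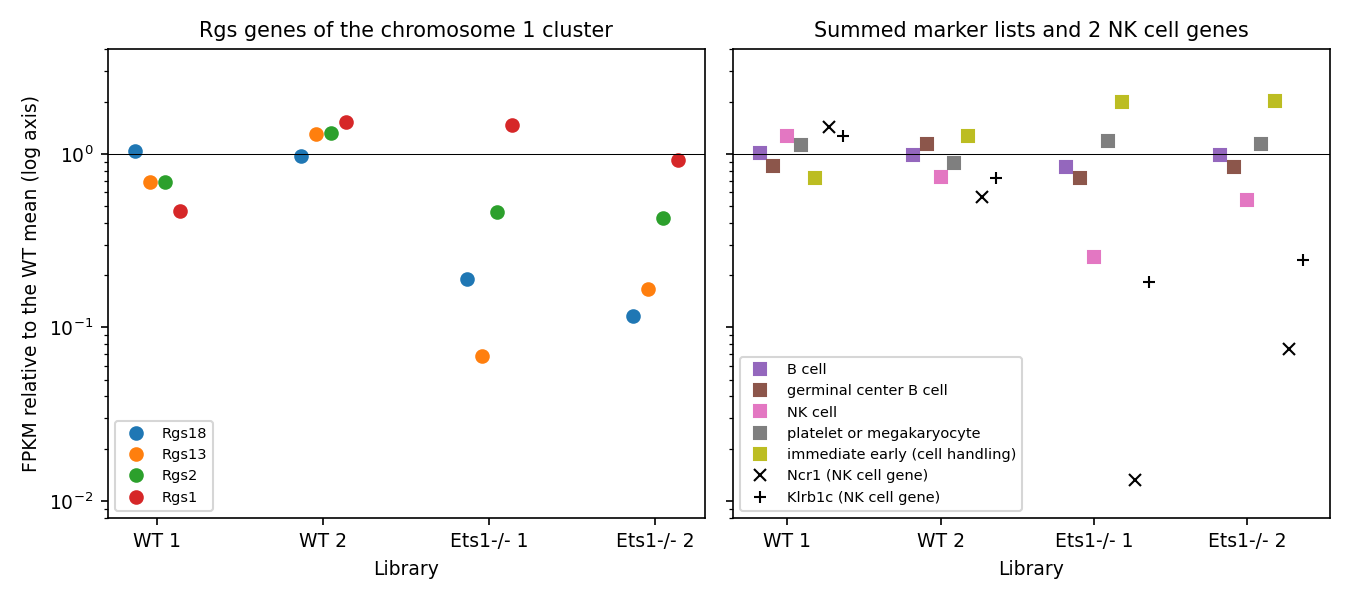
FPKM of Rgs18, Rgs13, Rgs2 and Rgs1 (left, circles) and summed FPKM of 5 marker lists (right, squares) with 2 natural killer cell genes (right, crosses) in each library, both divided by the WT mean and drawn on a log axis. In both Ets1-/- libraries Rgs18 and Rgs13 lie below the germinal center, natural killer cell and platelet sums. There the natural killer cell genes Ncr1 (x) and Klrb1c (+) lie below their sum, and the immediate early sum is above the WT mean. The other natural killer cell genes are drawn only within their sum.

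These 4 genes are neighbors. Rgs2, Rgs13, Rgs1, Rgs21 and Rgs18 lie in this order on the minus strand of chromosome 1 of the mm9 genome, from 145846468 to 146622565, and are the 5 protein-coding genes of that span of 776.1 kb in the GENCODE M1 annotation. Rgs21 had no FPKM value among the genes used here. Rgs2 lies from 145846468 to 145851291, Rgs13 from 145985797 to 146024502, Rgs1 from 146091102 to 146096372 and Rgs18 from 146599813 to 146622565. Rgs1, whose genotypes overlapped, sits 66.6 kb from Rgs13 and 503.4 kb from Rgs18, and 134.5 kb separate Rgs2 from Rgs13. With 1 Mb added on either side the annotation held 10 protein-coding genes, these 5 and 5 further ones. All 5 further genes had an FPKM value and lay on the Rgs2 side, so there was none beside Rgs18 to examine. Of the 5, 3 were tested and limma called 0, with 0 at a p under 0.05 before adjustment. Cdc73, Glrx2 and Uchl5, the 3 tested neighbors, had log2 fold changes of -0.00, -0.03 and -0.26.

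The sequences before the start sites of Rgs13 and Rgs2 are shown because both genes lie in this cluster and were lower in both Ets1-/- libraries, and that of Rgs19 because it was the highest of the 8 genes in every library and overlapped between the genotypes. Each run holds the 250 bases before the RefSeq start of the GRCm38.p6 build, 5′ to 3′ on the strand of the gene, and each occurs at 1 place on its chromosome in mm9, chr1:146024503-146024752 for Rgs13, chr1:145851280-145851529 for Rgs2 and chr2:181428683-181428932 for Rgs19, all on the minus strand. The Rgs19 window is the one farthest upstream of the 3 that RefSeq gives for this gene. Capitals mark GGAA, the core that ETS factors bind, or its reverse complement TTCC.

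Rgs13: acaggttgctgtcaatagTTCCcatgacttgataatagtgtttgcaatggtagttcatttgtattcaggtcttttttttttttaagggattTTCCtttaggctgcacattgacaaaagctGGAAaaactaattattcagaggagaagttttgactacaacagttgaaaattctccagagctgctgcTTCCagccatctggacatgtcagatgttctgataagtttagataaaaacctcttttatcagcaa
Rgs2: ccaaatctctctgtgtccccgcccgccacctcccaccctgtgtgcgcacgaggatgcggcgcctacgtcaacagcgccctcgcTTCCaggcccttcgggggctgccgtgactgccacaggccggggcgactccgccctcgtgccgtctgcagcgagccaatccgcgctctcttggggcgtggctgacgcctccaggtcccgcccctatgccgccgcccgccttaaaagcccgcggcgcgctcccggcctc
Rgs19: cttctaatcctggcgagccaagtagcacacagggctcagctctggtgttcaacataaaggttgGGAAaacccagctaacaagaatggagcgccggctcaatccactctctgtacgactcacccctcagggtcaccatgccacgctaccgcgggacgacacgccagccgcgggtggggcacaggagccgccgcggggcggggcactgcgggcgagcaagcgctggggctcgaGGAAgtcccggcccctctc

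The Rgs13 window held 4 matches to GGAA on either strand, the Rgs2 window 1 and the Rgs19 window 2. The Rgs19 windows not shown held 3 and 5. Such a short core is common, since 93.4% of 32817 promoter windows of this length held at least 1 match and the median was 3, and 33.4% held at least as many as Rgs13. The longer GGAAGT was found in the Rgs19 window and in 19.7% of all windows, and these letters were not in the Rgs13 or Rgs2 window. A match is a description of the letters and does not mark a site bound by Ets1. The windows differed in base composition. Rgs13 had 36.0% G and C and 0 CpG, lower in G and C than all but 5.81% of the windows, whereas Rgs2 had 72.4% and 30 CpG and Rgs19 64.8% and 20 CpG. Promoter windows were matched for 5 of the 8 genes, and those of Rgs1, Rgs14 and Rgs18 are not shown.

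The means of the other 4 genes differed by at most 1.22 times between the genotypes, and 0 of them passed the test or had a p under 0.05 before adjustment. Rgs19, which turns off Gi proteins and carries a string of cysteines for membrane anchoring, had an FPKM of 121 and 112 in WT and 95.7 and 119 in Ets1-/- libraries. The genotypes overlapped, and the log2 fold change of -0.12 had a 95% interval from -0.56 to 0.32. Rgs14, a larger protein that joins the RGS domain to Ras-binding domains and a GoLoco motif for inactive Gi, had an FPKM of 67.2 and 54.7 in WT and 47.95 and 67.4 in Ets1-/- libraries. It too overlapped, and its log2 fold change of -0.09 had an interval from -0.65 to 0.47. Both intervals leave out a 2-fold change but not smaller ones.

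Rgs10 and Rgs3 were expressed at a lower level. Rgs10, among the smallest RGS proteins, had an FPKM of 12.7 and 16.0 in WT and 10.6 and 13.02 in Ets1-/- libraries, and the 95% interval of its log2 fold change of -0.26 ran from -0.73 to 0.20. Rgs3, a gene with long and short isoforms that a whole-gene value adds together, had an FPKM of 8.31 and 9.39 in WT and 7.88 and 7.93 in Ets1-/- libraries. Its Ets1-/- values were below both WT values, but the log2 fold change of -0.14 (95% interval from -0.50 to 0.22) was small. The limma BH adjusted p-values of Rgs19, Rgs14, Rgs10 and Rgs3 were 0.885, 0.943, 0.676 and 0.803. In mm9 Rgs19 lies on chromosome 2 from 181423124 to 181428682, Rgs14 on chromosome 13 from 55471093 to 55486048, Rgs10 on chromosome 7 from 135517135 to 135562272 and Rgs3 on chromosome 4 from 62220881 to 62364052.

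**Figure D3:**
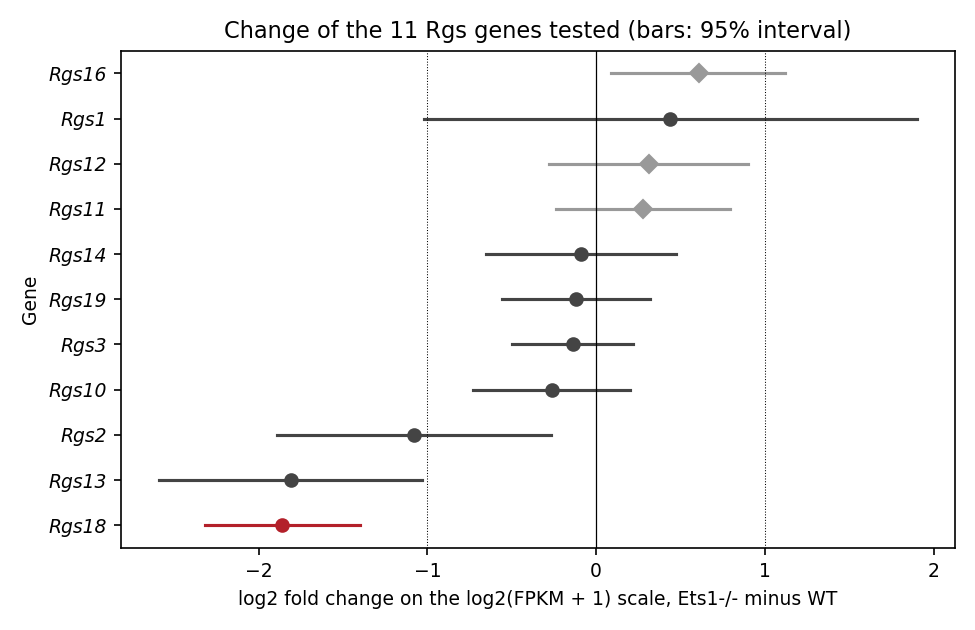
Log2 fold change (Ets1-/- minus WT, on the log2(FPKM + 1) scale) of the 11 Rgs genes tested, with bars for the 95% interval of the limma fit, circles for the 8 genes described here, diamonds for other Rgs genes and red for the called gene. Rgs18 at -1.86 and Rgs13 at -1.81 stand below -1 with their whole intervals, and the interval of Rgs1 runs from -1.02 to 1.90.

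The 8 genes covered a wide range of levels in the resting B cell, as FPKM. Rgs19 ranked first among the 8 in all 4 libraries, and its WT mean of 116 ± 6.40 (SD, n = 2) was above that of 93.5% of the tested genes. Rgs2, Rgs14 and Rgs1 came next in an order that changed from library to library, so these genes cannot be ranked against one another. Rgs10 was the fifth and Rgs3 the sixth in all 4 libraries. Rgs18 and Rgs13 took the last 2 ranks everywhere and changed places between replicates in both genotypes.

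Together the 8 genes made up between 98.1% and 99.2% of the summed FPKM of the 20 Rgs genes with a value. That sum was 297.5 and 377.5 in WT and 265.3 and 287.1 in Ets1-/- libraries. Rgs19 gave 40.6% and 29.6% of it in WT and 36.1% and 41.6% in Ets1-/- libraries, which overlap. Rgs2 gave 19.3% and 29.0% in WT and 14.6% and 12.3% in Ets1-/- libraries, without overlap. Rgs18 gave 2.04% and 1.5% in WT and 0.423% and 0.237% in Ets1-/- libraries, so the gene that passed the test was a minor part of the summed FPKM.

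**Figure D4:**
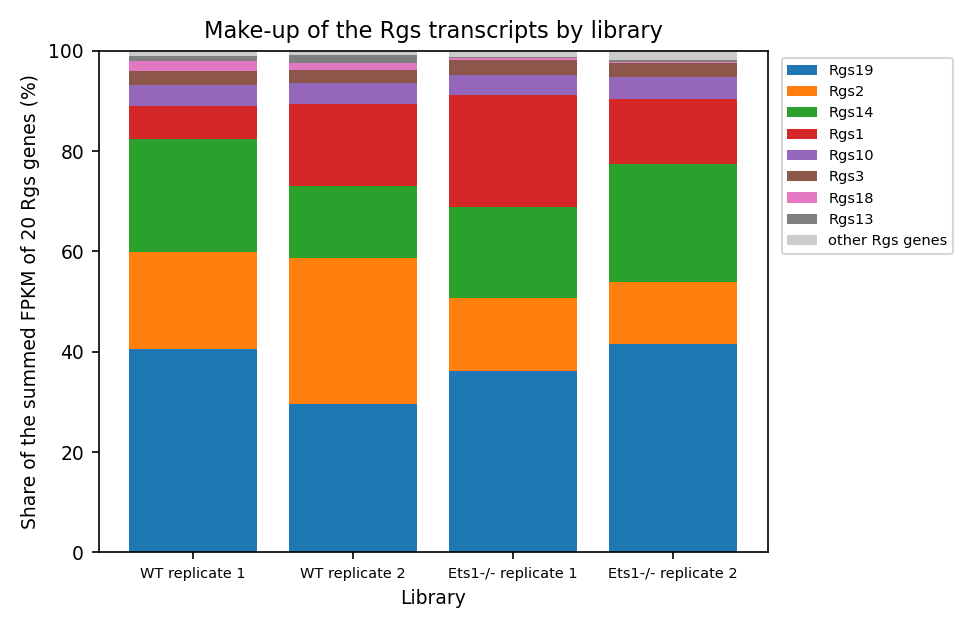
Stacked bars give the share (%) of the summed FPKM of 20 Rgs genes taken by each gene in each library, with the 12 other Rgs genes in gray. Rgs19 holds between 29.6% and 41.6%, and the share of Rgs2 is between 12.3% and 29.0%.

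The 12 other Rgs genes were near or at the bottom of the range. Of them 3, Rgs16, Rgs12 and Rgs11, reached a mean FPKM of 1 in a genotype and were tested, and limma called 0, with 1 at a p under 0.05 before adjustment. Rgs16, an R4 member induced by activation, had an FPKM of 0.441 and 0.829 in WT and 1.29 and 1.66 in Ets1-/- libraries, the opposite order to Rgs18, and its log2 fold change was 0.61 (limma BH adjusted p = 0.271). Rgs12, the large R12 member, had an FPKM of 0.963 and 0.932 in WT and 0.997 and 1.92 in Ets1-/- libraries. Rgs11, an R7 member that needs the β subunit Gnb5 to be stable, had 0.834 and 0.624 against 0.843 and 1.37. All 3 passed the filter through the Ets1-/- mean alone, so their shared direction comes with the filter. Rgs22 was listed at 0 in all 4 libraries, and Rgs4, Rgs5, Rgs6, Rgs7, Rgs8 and Rgs17 stayed under 0.05.

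In the pathway on which RGS proteins act, 61 genes were expressed highly enough to be tested and 1, Gna15, was called lower in Ets1-/- B cells. From a list of 73 receptors, G protein subunits, other regulators and effectors, 1 was thus called lower, 0 higher, and 11 had a p under 0.05 before adjustment, 7 lower and 4 higher. The median log2 fold change of the 61 genes was -0.11, and 19 had both Ets1-/- values below and 12 both above both WT values. Over all tested genes 22.2% had both below, 19.4% both above and 13.3% a p under 0.05 before adjustment. Gna15 encodes a Gq-class α subunit of blood cells. Its FPKM was 8.39 and 7.97 in WT and 2.002 and 2.71 in Ets1-/- libraries, without overlap and with little spread within a genotype. The WT mean was 3.47 times the Ets1-/- mean, and the log2 fold change of -1.46 (standard error 0.17) passed (limma BH adjusted p = 0.0282). This call was lost with no filter on low values, after quantile normalization, and without WT replicate 1, WT replicate 2 or Ets1-/- replicate 1, with limma BH adjusted p-values from 0.0554 to 0.108 and log2 fold changes from -1.49 to -1.30.

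Of 13 chemoattractant receptors tested, limma called 0 and gave 4 a p under 0.05 before adjustment, Cxcr4, Ccr7 and Ltb4r1 with higher and Ccr6 with lower values in Ets1-/- B cells. Cxcr4, the receptor for Cxcl12, had an FPKM of 211 and 292 in WT and 430.6 and 494 in Ets1-/- libraries, with a log2 fold change of 0.89 (limma BH adjusted p = 0.162). Cxcr5, which brings B cells into follicles, had 163 and 123 against 77.2 and 116, with a log2 fold change of -0.58. Ccr7, the receptor for T zone chemokines, had 133 and 148 against 215 and 183 (log2 fold change 0.50), and Ccr6 97.4 and 93.1 against 71.1 and 71.8 (log2 fold change -0.41). Ltb4r1, a leukotriene receptor that neutrophils also use, had 0.277 and 0.0901 against 2.01 and 0.902, in the same order among the libraries as the neutrophil genes.

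The G protein subunits were led by Gnas and by Gnai2, the main Gi α subunit of lymphocytes and the substrate of most RGS proteins. Gnai2 had an FPKM of 359 and 353 in WT and 335 and 435 in Ets1-/- libraries, with a log2 fold change of 0.10, and Gnas 459 and 456.5 against 467 and 536, with 0.13. Neither difference exceeded the spread of the Ets1-/- replicates. Besides Gna15, 1 of the 15 tested subunits had a p under 0.05 before adjustment. This was the β subunit gene Gnb4, with 0.829 and 0.925 against 2.40 and 3.83 and a log2 fold change of 1.11 (limma BH adjusted p = 0.0945). Gnb4 and Ltb4r1 passed the filter on low values through their Ets1-/- means alone, so their higher values come with the filter.

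Among 18 other regulators limma called 0 and gave 3 a p under 0.05 before adjustment, all lower in Ets1-/- B cells. Arrb2, a β-arrestin that uncouples receptors, had an FPKM of 43.56 and 43.64 in WT and 25.2 and 26.5 in Ets1-/- libraries (log2 fold change -0.73). Arrb1, the other β-arrestin, had 10.9 and 10.8 against 6.82 and 7.40 (log2 fold change -0.55), and Gpsm3, a GoLoco protein that binds inactive Gi, 101.5 and 109.9 against 64.3 and 77.9 (log2 fold change -0.57). Their limma BH adjusted p-values were 0.0759, 0.156 and 0.209. Arhgef1, which carries an RGS-like domain for the G12 class, and Adrbk1, a receptor kinase, were the highest of this group with WT means of 378.5 and 279 FPKM, overlapped between the genotypes, and had log2 fold changes of -0.26 and -0.04.

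Of 15 effectors limma called 0 and gave 2 a p under 0.05 before adjustment, both lower, and 9 of the 15 had both Ets1-/- values below and 2 both above both WT values, against 22.2% and 19.4% of all tested genes. Rasgrp2, which activates the small GTPase Rap1 for adhesion, had an FPKM of 151 and 167 in WT and 93.9 and 101 in Ets1-/- libraries (log2 fold change -0.70, limma BH adjusted p = 0.116). Adcy7, an adenylyl cyclase, had 78.6 and 70.1 against 55.6 and 52.4 (log2 fold change -0.45). The highest effectors, Rac2 and Rap1b, had WT means of 351 and 189 FPKM and log2 fold changes of -0.25 and -0.27, within intervals that hold 0.

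**Figure D5:**
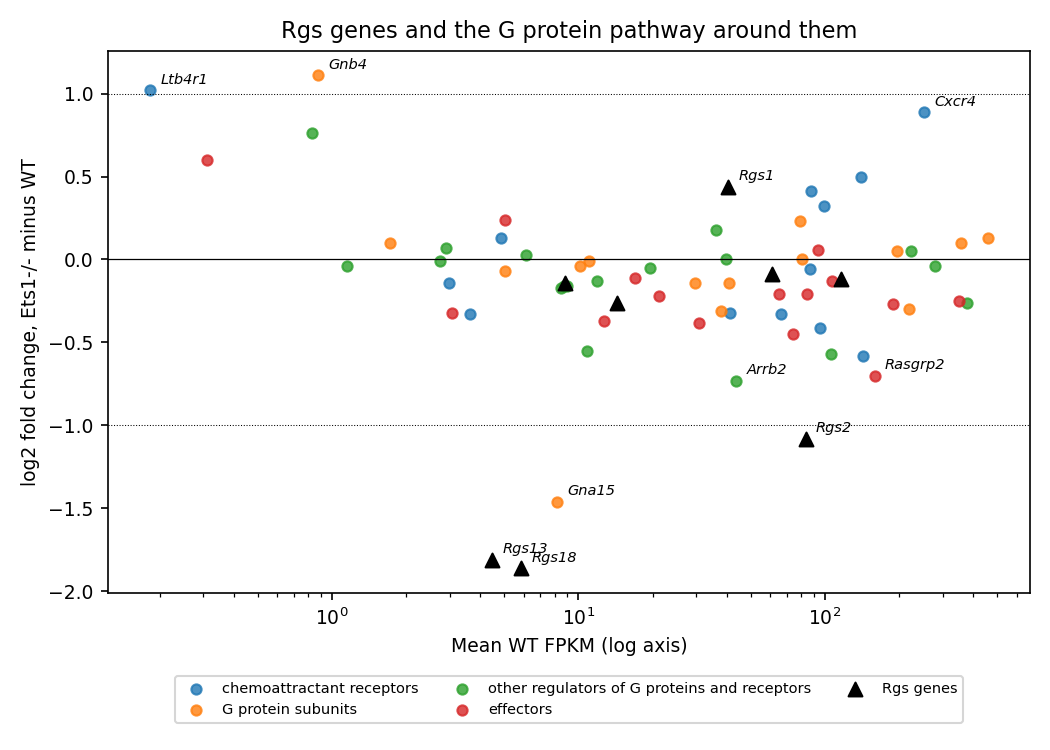
Log2 fold change (Ets1-/- minus WT) against the mean WT FPKM (log axis) for the 61 tested genes of the pathway, colored by role, and for the 8 Rgs genes (black triangles), with dotted lines at -1 and 1. Gna15 at -1.46 is the lowest pathway gene, and Rgs18, Rgs13 and Rgs2 are the triangles under the lower dotted line.

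The tested genes whose levels over the 4 libraries were most like those of Rgs18 were Pde2a, Slc2a3 and Rnase12. Likeness was the root mean square distance between the log2(FPKM + 1) values of 2 genes, each taken from its own mean over the 4 libraries, and was 0.085, 0.087 and 0.090 for these genes. Pde2a, a phosphodiesterase that breaks down cyclic nucleotides, had an FPKM of 34.1 and 27.7 in WT and 8.36 and 7.06 in Ets1-/- libraries. Slc2a3, a glucose transporter, had 16.2 and 17.0 against 4.15 and 3.67, and Rnase12, a member of the ribonuclease A family, 3.31 and 2.98 against 0.248 and 0.157. With 4 libraries this likeness mostly says that the genes differ between the genotypes by a similar amount on the log2(FPKM + 1) scale. As ratios of the WT to the Ets1-/- mean the differences were 4.01, 4.25 and 15.5, beside 6.52 for Rgs18. Rnase12 passed the filter on low values through its WT mean alone.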

How the data were processed

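RNA-seq was analysed in 4 libraries of sorted follicular B cells, 2 WT and 2 Ets1-/-. The authors aligned reads to mm9 with TopHat2 2.0.13, estimated expression with Cuffdiff and deposited 1 FPKM value per gene symbol and library; the annotation and any scaling between libraries are not given in the sources used here. Count models, which need read counts, were not used. Of 23309 entries, 4 with repeated symbols were left out. Log2(FPKM + 1) values of the 10949 genes whose mean FPKM reached 1 in WT or in Ets1-/- B cells were fitted over 4 libraries. The fit used limma 3.58.1 in R 4.3.3 (lmFit, eBayes with trend, residual degrees of freedom 2), with Benjamini-Hochberg adjustment. It was first tested on simulated data in which all changed genes had higher levels than Rgs18, Rgs13 and Gna15. The simulation therefore does not cover genes at their levels. Depth was estimated relative to WT replicate 1 from ratios of FPKM values under 0.05. No permutation test was made, since 2 against 2 libraries cannot go below a two-sided p of 0.333. The limma p-values rest on the spread between these libraries and on the variance trend over all tested genes (prior degrees of freedom 3.1).

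The 8 genes, the gene lists and the tests were chosen with earlier results of these data known. Named genes were the 8, the other Rgs genes that were tested (others are named by their low level), the pathway genes called, at an unadjusted p under 0.05 or among the 2 highest WT means of their role, and the 3 genes most like the gene with the largest log2 fold change. Gene positions are from GENCODE M1 and promoter sequences from RefSeq. Alternatives covered the pseudocount, the filter, quantile normalization, a replicate block, robust variances, the fold minimum and each library left out, where the lone library of a genotype was assumed to vary like the others. Other computations used Python 3.11.15, numpy 2.4.6, pandas 2.3.3 and matplotlib 3.10.9.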

Additional observations from a re-analysis of the deposited data

How the results depend on the processing

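The fall of Rgs18 kept its direction in all 11 alternatives that could test it and its call in 10. The call was lost with no filter on low values, where 0 of the 8 Rgs genes, 0 pathway genes and 75 genes in all were called and the log2 fold change of Rgs18 was still -1.86. With a mean FPKM of at least 1 required in both genotypes Rgs18 and Rgs13 could not be tested, and 0 of the other 6 Rgs genes were called. Both passed the main filter through their WT means alone, so the alternatives that share this filter are no separate support for a fall. Robust variance estimation called 2 Rgs genes, 2 pathway genes and 305 genes in all, Rgs13 among them at -1.81 (limma BH adjusted p = 0.023). With the replicate number as a block 2 Rgs genes were called, with Rgs13 at -1.81 (limma BH adjusted p = 0.00513), Rgs18 at -1.86 (0.00407, limma) and 266 genes in all. The labels share replicate numbers but give no pairing, and the deviations of same-numbered libraries had a correlation across genes of -0.207. With the crossed pairing as a block, chosen after seeing the data, 3 Rgs genes, 3 pathway genes and 409 genes in all were called, with Rgs2 at -1.08 and Rgs13 at -1.81. Quantile normalization called 0 pathway genes. With each library left out in turn, between 1 and 2 Rgs genes and between 0 and 1 pathway genes were called, with Rgs13 called without WT replicate 1. The log2 fold changes then ranged from -2.03 to -1.69 for Rgs18, -2.18 to -1.44 for Rgs13, -1.54 to -0.62 for Rgs2, -0.39 to 1.26 for Rgs1, -0.33 to 0.15 for Rgs14 and -0.28 to 0.04 for Rgs19, so the last 3 have no settled direction. Why these alternatives differ was not tested. The number of fragments behind each FPKM is unknown, which limits what can be said of Rgs13 and Rgs18 at values under 1.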

Other observations

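Rgs1 and Rgs2, which lie in the same cluster on chromosome 1 with Rgs13 between them and both respond to activation, changed places between the genotypes. The FPKM of Rgs1 was 0.33 and 0.564 times that of Rgs2 in the WT libraries and 1.53 and 1.05 times in the Ets1-/- libraries, without overlap. This ratio was chosen after its values were seen and was not tested. The Rgs1 values alone overlapped between the genotypes.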
